A study of Mus musculus with 23 samples.

Results

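Mast cells, basophils and eosinophils are granule-bearing blood cells of allergy and of the defence against parasites. Mast cells and basophils store histamine, heparin-type proteoglycans and proteases, and release them when IgE bound to the receptor FcεRI is crosslinked by antigen. Eosinophils store basic proteins and a peroxidase in their own granules. The 10 genes followed here are Hdc, Cpa3, Cma1, Mcpt8, Gzmb, Fcer1a, Ms4a2, Prg2, Epx and Siglecf. They were taken as every probe whose RefSeq accession belongs to one of these symbols, with the brightest probe on average kept for each gene. All 10 had a probe (1 probe for 9 genes and 2 for Siglecf), out of 20145 genes named on the array, and 6 of them were among the 15246 genes that reached a log2 intensity of 6.5 on at least 1 array and were tested. The genes were listed with the rise of Hdc in HE2 already known from these arrays, so that rise is given as a description without a test. Earlier results of these data were also known when the other members and all gene lists were chosen.

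The cells came from 1 mouse ES cell line (A2lox, strain label C57BL/6) that carries the human RUNX1-ETO fusion, the product of the t(8;21) translocation, under a tetracycline-responsive promoter in a Runx1 wild-type background. Uninduced (nodox) and induced (plusdox) cells were hybridised to 1-colour Agilent arrays at 4 stages. The first is haemogenic endothelium (HE; KIT+ Tie2+ CD41-), with 3 uninduced and 3 induced arrays. The second is HE2, cells in transition that have gained CD41 (KIT+ Tie2+ CD41+), with 3 and 3. The third is CD41+KIT+Tie2- progenitors, with 2 and 2, and the fourth is myeloid progenitors grown from them in expansion medium with added cytokines, with 3 and 3. Doxycycline (Dox, 0.1 µg per ml) was given from day 1 of blast culture for the first 3 stages and for 12 h to the myeloid progenitors. All groups carry the transgene, and no array of Dox-treated cells without it was analysed here, so an effect of Dox itself cannot be told apart from that of RUNX1-ETO. Replicates share 1 line, so the errors measure the spread between cultures of it.

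Between 48.8% and 78.4% of the spots on an array were well above background. The probe for Runx1t1, the ETO partner of the fusion, checks the labels. It was higher in every induced than in every uninduced array of its stage, by 1.24 (log2) in HE, which was not called, and by 2.08, 3.97 and 2.06 in HE2, progenitors and myeloid progenitors, which were. Kit stayed between 12.3 and 14.1 (log2) in the 3 KIT-sorted stages. Itga2b, which encodes CD41, ranged from 9.49 to 11.46 in uninduced HE and from 11.19 to 12.51 in uninduced HE2, so the groups overlapped, and the CD41 gate does not separate them in this transcript. With Dox, Itga2b changed by -3.21 in HE, which was called, and by -2.46 in HE2, which was not. Tek, which encodes Tie2, averaged 10.67 in uninduced HE2 and 8.67 in uninduced progenitors, a step that was not called. In induced progenitors, sorted as Tie2-, Tek averaged 11.11, above uninduced HE2, so this transcript does not follow the Tie2 gate either. All 6 myeloid arrays, 1 induced progenitor array and an additional uninduced progenitor array were hybridised on 1 slide and read on another scan day than the other 15 arrays.

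**Figure D1:**
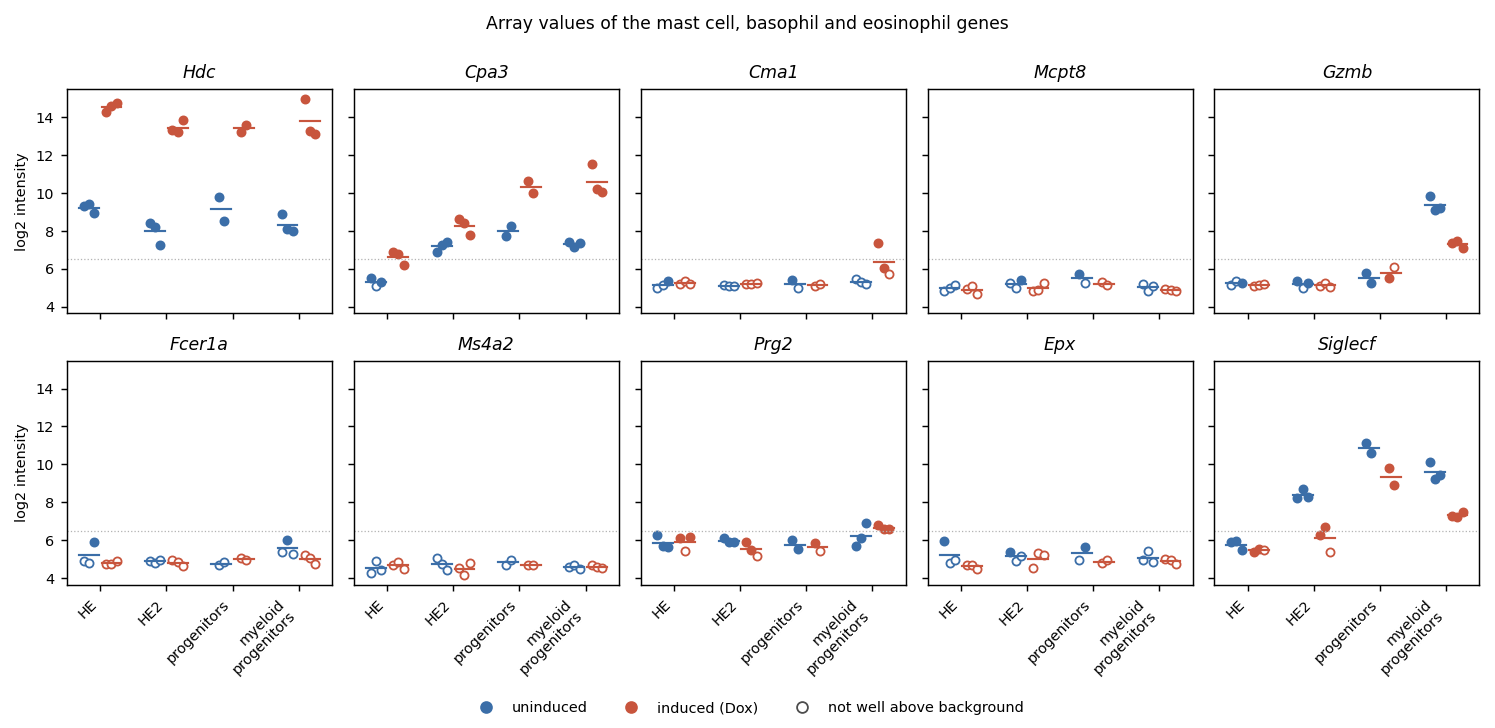
Log2 intensity (y axis) of the 10 genes on every array of the 4 stages (x axis), uninduced in blue and induced in red. Short lines are group means, hollow points were not well above background, and the dotted line marks 6.5. Hdc and Cpa3 were separated by Dox at every stage, Cpa3 by more in the later stages, Siglecf and Gzmb were lower with Dox where they were expressed, and Mcpt8, Fcer1a, Ms4a2 and Epx stayed at the bottom of the scale.

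A change was called at a P of at most 0.001 with at least a 2-fold difference, by limma across all tested genes, and every adjusted P given is the Benjamini-Hochberg value over these genes. In HE, 2 of the 6 tested genes rose with Dox (Hdc and Cpa3) and none fell, where 7.08% of all tested genes were called, 4.7% up and 2.38% down. In HE2, 1 fell (Siglecf) and no gene other than Hdc rose, beside 2.06% down and 5.1% up of all genes (7.16% either way). The rise of Hdc there was known beforehand and is left out of this count. In progenitors, 2 rose (Hdc and Cpa3) and 1 fell (Siglecf), beside 3.04% and 0.702% (3.74% either way). In myeloid progenitors, 2 rose (Hdc and Cpa3) and 2 fell (Siglecf and Gzmb), beside 5.11% and 1.18% (6.29% either way). Over the 6 genes the median log2 change was 0.068, 0.013, 0.11 and 0.73 in these 4 stages, and over all tested genes it was -0.0062, -0.029, -0.040 and -0.018. With calls in both directions in progenitors and myeloid progenitors, the members are described one role at a time.

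**Figure D2:**
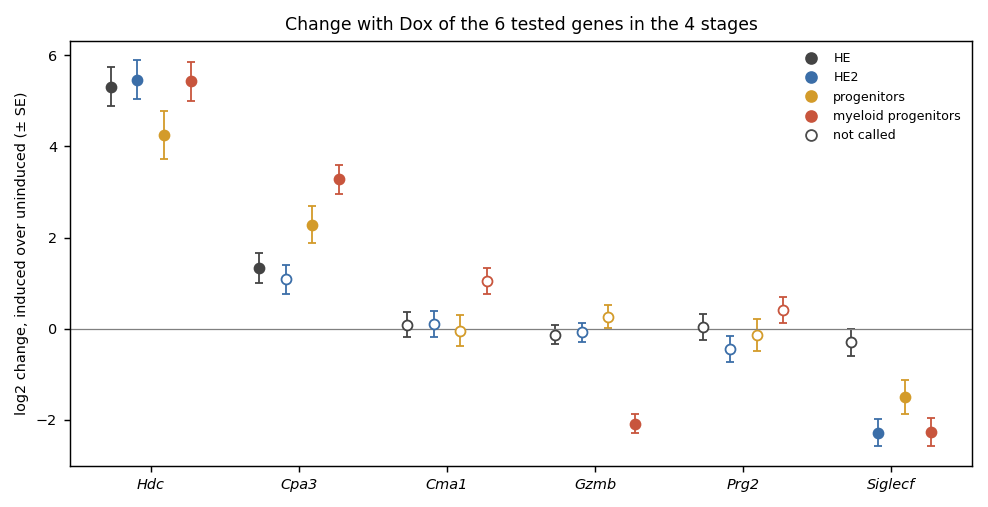
Log2 change of the 6 tested genes (induced over uninduced, y axis) in the 4 stages, with the standard error of the fit. Filled points were called, hollow points were not. The filled point of Hdc in HE2 was known beforehand and is a description. Hdc rose by 4.26 to 5.47, Cpa3 by 1.08 to 3.27, and Siglecf and Gzmb fell by up to 2.28 and 2.08.

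Hdc encodes histidine decarboxylase, which makes histamine from histidine and is also transcribed in other immature myeloid cells. It gave the largest change of the 10 genes at every stage. In uninduced HE it read 9.31, 9.44 and 8.93 (log2 intensity), and in induced HE 14.28, 14.61 and 14.71. No uninduced array came within 4 log2 units of an induced one there, and the rise was 5.31 (SE 0.43, 39.6-fold, adjusted P = 1.92e-07). In HE2 the uninduced arrays read 8.42, 8.22 and 7.29 and the induced ones 13.30, 13.20 and 13.82, a difference of 5.47 (44.2-fold). The uninduced level was here the lowest of the 4 stages.

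In progenitors Hdc read 9.77 and 8.53 without and 13.23 and 13.59 with Dox, a rise of 4.26 (SE 0.52, 19.1-fold, adjusted P = 6.07e-05). In myeloid progenitors, after 12 h of Dox, it read 8.92, 8.13 and 7.98 without and 14.94, 13.26 and 13.12 with Dox. This rise of 5.43 (SE 0.43, 43.1-fold, adjusted P = 1.39e-07) was close in size to those in HE and HE2. Every induced array lay above 13 and every uninduced array below 10, whatever the stage. Within slides, the difference with Dox was 4.91 and 5.73 in HE, 4.98 and 6.23 in HE2, 3.46 in progenitors on slide 1 and 4.91 on slide 3 against the additional uninduced array. Markers of red cells moved with Hdc in the first 3 stages. The summed intensity of 8 such genes ran from 35800 to 45800 in uninduced and from 186000 to 368000 in induced HE, and from 181000 to 214000 and from 523000 to 731000 in progenitors, with 4 and 5 of the 8 called up. In myeloid progenitors none of the 8 was called. The sums of 8 endothelial genes were higher with Dox in HE2 (45400 to 64500 without and 114000 to 122000 with Dox), in progenitors (23000 to 24000 and 42200 to 50500) and in myeloid progenitors (11100 to 15200 and 47700 to 56500), with 3, 3 and 6 of the 8 called up. Their part in the rises of Hdc and Cpa3 was not tested. In a bulk sample, fewer cells of a type and less RNA per cell cannot be told apart. Of the mast cell markers outside the members (Kit, Tpsb2 and Mcpt4) 0 of 3 were called with Dox at any stage by limma. Of the basophil markers Prss34, Cd200r3, Il3ra and Itga2, 0 of the 3 tested were called, beside 3.74% to 7.16% of all tested genes. The basophil sum was higher with Dox in HE (4370 to 6070 without, 7770 to 11400 with) and HE2 (3850 to 5830, 7390 to 12400). The mast cell sum was higher in myeloid progenitors (2150 to 3580, 4070 to 6100) and lower in progenitors (11000 to 17200, 8050 to 10700). At the other stages these sums overlapped, and their part in the rises was not tested either.

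Without Dox, Hdc showed no called step along the pathway. Its mean was 9.23 in HE and 7.98 in HE2, then 9.15 in progenitors, and 8.34 in the myeloid stage. The fall of 1.25 from HE to HE2 had an adjusted P of 0.073 and the rise of 1.18 from HE2 to progenitors one of 0.18, and the progenitor and myeloid arrays overlapped.

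Of the other genes for histamine handling, Slc18a2, the vesicular transporter that loads histamine into granules, fell by 1.82 in HE (SE 0.34, adjusted P = 0.00107), from 11.3 to 9.46. It was the only 1 of 5 tested genes of this group that was called with Dox at any stage, while Hdc rose in the same cells. The histamine-degrading enzyme Aoc1 was not called with Dox. Aoc1 was lower in uninduced myeloid progenitors than in uninduced progenitors (mean log2 intensities of 5.38 and 6.40). The difference was at least 2.00-fold, a lower bound since no myeloid array was well above background. Aoc1 passed the level for testing only through the higher of the uninduced progenitor arrays, which read 6.93 and 5.87. Its difference is therefore given as a description. Hnmt, the other such enzyme, stayed under the level for testing, and Hrh2 had no probe by accession.

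Cpa3 encodes carboxypeptidase A3, a protease of mast cell granules that is already transcribed in early mast cell and basophil progenitors. Without Dox it rose from HE to HE2. The next steps, 0.83 to progenitors and -0.70 to myeloid progenitors, were not called (adjusted P by limma of 0.219 and 0.147). It was higher with Dox on every array of each stage. In HE it read 5.52, 5.12 and 5.30 without and 6.91, 6.81 and 6.21 with Dox, and 1 uninduced array was not well above background. The groups did not overlap, and the rise of 1.33 (SE 0.33, adjusted P = 0.00834) was called. In HE2 the arrays read 6.88, 7.28 and 7.41 without and 8.61, 8.41 and 7.79 with Dox. These groups did not overlap either, but the difference of 1.08 (SE 0.33) had a P of 0.00387 (adjusted P = 0.0281) by limma and was not called.

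In progenitors Cpa3 read 7.76 and 8.29 without and 10.61 and 10.01 with Dox, a rise of 2.29 (SE 0.40, 4.87-fold, adjusted P = 0.00160). In myeloid progenitors it read 7.44, 7.16 and 7.36 without and 11.51, 10.22 and 10.05 with Dox, a rise of 3.27 (SE 0.33, 9.68-fold, adjusted P = 1.78e-06). The rise in myeloid progenitors exceeded that in HE2 by 2.19 (SE 0.46, adjusted P = 0.0141), and the difference between the 2 responses was called. Induced myeloid replicate 1 was the highest array for Cpa3, as it was for Hdc and Cma1, and without it the rise was 2.82.

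The call of Cpa3 in HE was the least stable of its calls. It was lost without uninduced HE replicate 1, 2 or 3 (1.43, 1.23 and 1.32), without induced HE replicate 1 or 2 (1.19 and 1.24) and without uninduced myeloid replicate 1 or 3 (1.33 in both), and it was lost with a background offset of 50 (0.87), in the deposited values (0.89), without background correction (1.24) and with the slide as a block (1.34). In HE2, leaving out induced myeloid replicate 1 left the change at 1.08 and brought it past the threshold.

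The promoters of both genes that rose are shown to compare their sequence, from 250 bases before to 50 bases after the RefSeq start (build GRCm38.p6; both genes lie on the minus strand and are written 5′ to 3′ along the gene). Capitals mark each match to the RUNX words TGTGGT or TGCGGT or the GATA words AGATAA and AGATAG (with TGATAA and also TGATAG), on either strand.
Hdc (chr2:126618629-126618928): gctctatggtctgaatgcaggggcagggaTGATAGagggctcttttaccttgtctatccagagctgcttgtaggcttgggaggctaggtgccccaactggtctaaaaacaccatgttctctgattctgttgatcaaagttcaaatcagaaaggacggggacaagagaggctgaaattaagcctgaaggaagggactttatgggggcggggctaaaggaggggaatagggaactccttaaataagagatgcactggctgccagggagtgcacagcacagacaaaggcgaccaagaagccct
Cpa3 (chr3:20242132-20242431): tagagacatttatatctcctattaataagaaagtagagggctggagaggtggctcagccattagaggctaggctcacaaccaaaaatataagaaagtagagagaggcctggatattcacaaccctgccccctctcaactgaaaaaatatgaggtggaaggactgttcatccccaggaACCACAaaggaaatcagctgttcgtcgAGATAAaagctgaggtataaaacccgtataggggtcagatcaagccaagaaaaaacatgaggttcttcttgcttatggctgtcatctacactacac
The Hdc window held no RUNX word and 1 GATA word at position -221, counted from the start. The Cpa3 window held a RUNX word on the opposite strand at -73 and a GATA word at -46. Of 32851 promoter windows of this length, 22.4% held a RUNX word and 29.8% a GATA word. Of the 9 members with a window, 7 held a RUNX word (all but Hdc and Epx) and 6 a GATA word. No entry was given for Prg2. These matches describe the letters only.

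The other granule proteases among the members changed less or at 1 stage only. Cma1 encodes mast cell chymase. It was not well above background on any HE2 or uninduced myeloid array, and was so on 4 of 22 arrays. In myeloid progenitors it read 5.45, 5.31 and 5.23 without and 7.37, 6.06 and 5.71 with Dox, and 2 of the 3 induced arrays were well above background. The induced mean was at least 1.95-fold higher (mean log2 intensities of 6.38 and 5.33), which was not called. Cma1 passed the level for testing through induced replicate 1 alone, so its difference is given as a description. Without induced replicate 1 the difference was 0.56, and without induced replicate 3 it was 1.38. With the additional progenitor array in the fit it was 1.05.

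Mcpt8 encodes a protease that marks mouse basophils. It never passed 5.73 and was well above background on 2 of 22 arrays, both uninduced, so that no level could be followed.

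Gzmb encodes granzyme B, best known from cytotoxic lymphocytes and also made by mast cells and basophils. It stayed between 5.01 and 6.09 on every HE, HE2 and progenitor array and passed the level for testing only through the myeloid arrays, so that its step up to them is a description. In uninduced myeloid progenitors it read 9.87, 9.13 and 9.19, and the step from uninduced progenitors, which read 5.80 and 5.28, was a rise of 3.86 (14.5-fold). All myeloid arrays were on slide 3, and against the additional progenitor array of that slide the difference was 4.09. With Dox for 12 h, Gzmb read 7.36, 7.49 and 7.10, a fall of 2.08 (SE 0.21, 4.23-fold, adjusted P = 1.78e-06), with no overlap. Megakaryocyte markers moved with it. The summed intensity of 8 such genes was 105000 to 116000 in the uninduced and 54500 to 59100 in the induced myeloid arrays, and 6 of the 8 fell. Their part in the fall of Gzmb was not tested. The T or NK cell list summed to 1370 to 1650 without and 1210 to 1380 with Dox, and none of its genes was called there. In HE2, where Gzmb stayed under 5.4, it changed by -0.08 and was not called. At that level a fall in HE2 could not be seen.

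Cma1, Mcpt8 and Gzmb belong to the same cluster of chymase and granzyme genes on chromosome 14, of 15 protein-coding genes from Cma1 to Gzmb in RefSeq order. Of these, 8 were tested and Gzmb alone was called with Dox, in myeloid progenitors. Its neighbour Gzmc changed there by -0.73 and was not called, and the mast cell proteases Mcpt4 and Mcpt2 by -0.22 and -0.40. Cma2, well above background on all 22 arrays, changed by -0.33. On chromosomes 2 and 3, none of the tested genes among the 3 protein-coding neighbours on each side of Hdc and Cpa3 was called with Dox at any stage. Across the wider list of 14 granule proteases, 8 were tested and none was called with Dox at any stage. Of all tested genes, 3.74% to 7.16% were called at these stages, so few calls would be found among so few genes. Gzmb and Cpa3 were the only tested genes of stored proteases, members and list together, that were called with Dox. Mcpt4, Gzmc, Gzme and Ctsg read at most 6.529, 6.545, 6.866 and 6.931, where a fall as large as that of Gzmb could not be seen.

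**Figure D3:**
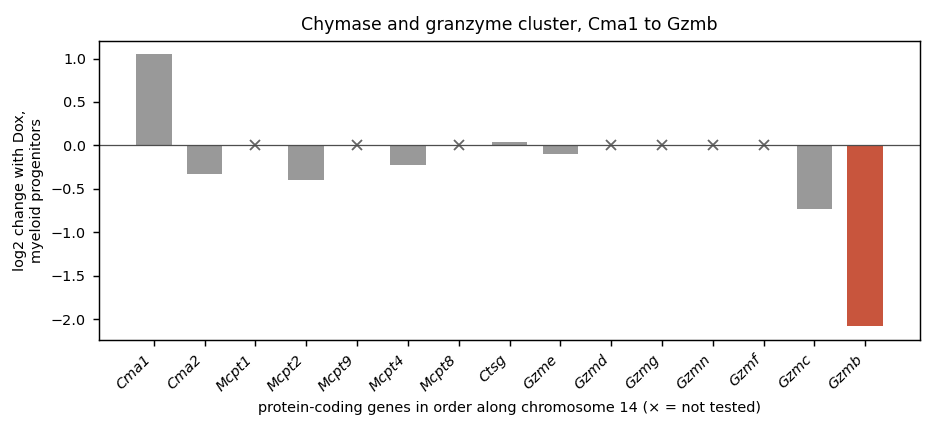
Log2 change with Dox in myeloid progenitors (y axis) of the 15 protein-coding genes from Cma1 to Gzmb in their order on chromosome 14 (x axis, not to distance). The red bar was called, grey bars were not, and crosses mark genes not tested. Gzmb at -2.08 was the only gene called, and Mcpt4, Gzmc, Gzme and Ctsg were too dim for such a fall to be seen.

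Fcer1a and Ms4a2 encode the α chain, which binds IgE, and the β chain of FcεRI, and define mature mast cells and basophils. Neither was seen. Fcer1a was well above background on 2 of 22 arrays, both uninduced (1 HE array at 5.93 and 1 myeloid array at 6.04), and Ms4a2 on 0 of 22, with values from 4.19 to 5.06. Neither could be tested, and the induced cells with high Hdc and Cpa3 were no exception, at 4.66 to 5.25 for Fcer1a.

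The γ chain of the receptor, Fcer1g, which is shared with other Fc receptors and is made by most myeloid cells, behaved otherwise. It rose from 9.19 in uninduced HE to 13.1 in uninduced HE2, by 3.91 (SE 0.38, adjusted P = 2.95e-06). With Dox it fell by 2.96 in HE2 (SE 0.38, adjusted P = 3.90e-05) and by 2.00 in progenitors (SE 0.47, adjusted P = 0.0150). In HE it was called down as well, but the groups overlapped. Among the 13 genes of IgE receptor signalling, all tested, 2 rose and 3 fell with Dox in HE, 2 rose and 3 fell in HE2, and 1 fell in each of progenitors and myeloid progenitors. The kinases Syk and Fyn rose in HE by 1.15 and 1.11 and in HE2 by 1.08 and 1.196. The adaptor Lat fell by 1.98 in HE, 1.05 in HE2 and 1.53 in myeloid progenitors, and the phospholipase Plcg2 fell by 1.14 in HE and was called down in HE2 as well. The median change of the 13 genes was 0.026 in HE and -0.054 in HE2.

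Siglecf encodes Siglec-F, a sialic acid-binding inhibitory receptor of mouse eosinophils that is also found on alveolar macrophages. In uninduced cells it read 5.91, 5.96 and 5.48 in HE, 8.21, 8.73 and 8.30 in HE2 and 11.11 and 10.61 in progenitors. Each step was larger than the spread, with rises of 2.63 (SE 0.31, adjusted P = 1.92e-05) and 2.45 (SE 0.34, adjusted P = 9.13e-05). In uninduced myeloid progenitors it read 10.13, 9.24 and 9.45, below both progenitor arrays by 1.25 on average by limma (adjusted P = 0.00915), which was not called at the threshold used. It was called without induced HE2 replicate 3 or uninduced myeloid replicate 1. Among all genes tested, 2.39% rose and 2.64% fell from HE to HE2 (5.03% either way), 1.75% rose and 3.63% fell from HE2 to progenitors (5.39%), and 7.07% rose and 6.81% fell from progenitors to myeloid progenitors (13.9%), where the median of all genes was -0.12. Of the 6 members, 2 rose at the first step (Cpa3, from 5.31 to 7.19, adjusted P = 0.00101, and Siglecf), 1 at the second (Siglecf) and 1 at the third (Gzmb), and none fell. Gzmb was tested only through the myeloid arrays, so its step is a description and not a result to set beside the share of all genes.

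With Dox, Siglecf read 5.40, 5.56 and 5.49 in HE, 6.30, 6.69 and 5.41 in HE2, 9.81 and 8.91 in progenitors and 7.28, 7.24 and 7.52 in myeloid progenitors. In HE the groups overlapped at a low level. In HE2 the fall was 2.28 (SE 0.31, 4.85-fold, adjusted P = 5.51e-05), and in myeloid progenitors 2.26 (SE 0.31, 4.79-fold, adjusted P = 4.63e-05), with no overlap in either. In progenitors the change was -1.498 (SE 0.37, adjusted P = 0.0222). The difference between the responses in HE2 and HE was -1.98 (SE 0.43), but the HE arrays lay between 5.40 and 5.96, where a fall of that size could not be seen. A difference between responses was called for 1.34% of all genes between HE and HE2 (0.623% up and 0.722% down), for 0.643% between HE2 and progenitors (0.236% and 0.407%), where no member was called, and for 2.19% between HE2 and myeloid progenitors (1.12% and 1.08%). Of the members, Siglecf passed in the first of these and Cpa3 and Gzmb in the last, Siglecf and Gzmb against a stage at which they were low. HE2 and myeloid responses differed by 0.018 (SE 0.43). Markers of other cells moved with Siglecf. In HE2 the summed intensity of 8 neutrophil genes was 8230 to 14400 without and 3340 to 4900 with Dox, and 2 of 6 tested genes fell. In progenitors the neutrophil sum was 29800 to 39200 without and 17900 to 22600 with Dox. The sum of 7 macrophage genes was 6840 to 8590 and 3550 to 4440 there. In HE2 the macrophage sum went the other way, at 3190 to 3840 without and 5030 to 11300 with Dox. Of its 6 tested genes, 1 rose and 2 fell in HE2. In myeloid progenitors the macrophage sums overlapped (16200 to 26700 and 13900 to 21200). The neutrophil sums overlapped in myeloid progenitors as well (7720 to 16000 and 4490 to 8770). The megakaryocyte sum was lower with Dox in myeloid progenitors, as given for Gzmb. It was also lower in HE2 (28700 to 50200 without, 19200 to 22900 with) and in progenitors (50000 to 54700, 42800 to 43800). Their part in the falls of Siglecf was not tested.

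The call in progenitors was weak. It rests on 2 arrays a side, and it was lost when any 1 of 15 of the 22 arrays was left out. Leaving out uninduced progenitor replicate 1 or 2 gave -1.25 and -1.75, and leaving out induced progenitor replicate 2, which was scanned on slide 3, gave -1.04. Uninduced HE replicates 1 and 2, all 3 induced HE arrays, uninduced HE2 replicates 1 and 3, induced HE2 replicate 1, uninduced myeloid replicate 3 and the 3 induced myeloid arrays each changed the error alone, with the change kept at -1.498. With the slide as a block the change was -1.16. On slide 1 the difference was -1.30, and on slide 3 against the additional uninduced array -1.47. The second Siglecf probe, dimmer on average (6.11 against 7.67) and well above background on 12 of 22 arrays, changed by 0.21, -1.32, -1.70 and -1.35 at the 4 stages.

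The promoters of the genes that fell with Dox are shown in the same way as those above (build GRCm38.p6; Siglecf on the plus and Gzmb on the minus strand), with RUNX and GATA words in capitals.
Siglecf (chr7:43351091-43351390): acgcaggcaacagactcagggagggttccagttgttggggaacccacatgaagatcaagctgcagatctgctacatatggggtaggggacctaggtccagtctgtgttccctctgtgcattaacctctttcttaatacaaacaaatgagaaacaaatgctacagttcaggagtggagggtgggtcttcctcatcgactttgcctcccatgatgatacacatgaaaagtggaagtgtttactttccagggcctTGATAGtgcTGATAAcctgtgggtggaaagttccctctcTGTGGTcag
Gzmb (chr14:56262285-56262584): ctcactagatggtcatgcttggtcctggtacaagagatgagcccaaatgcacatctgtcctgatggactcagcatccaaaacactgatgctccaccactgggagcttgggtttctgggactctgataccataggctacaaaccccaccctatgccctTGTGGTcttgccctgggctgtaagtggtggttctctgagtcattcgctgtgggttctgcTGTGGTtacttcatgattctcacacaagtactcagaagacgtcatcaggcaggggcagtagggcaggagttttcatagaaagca
The Siglecf window held a RUNX word at position 42 and GATA words at 3 and 12, all past the start. It also held 2 copies of the E-box word CATGTG, which factors of the MITF family can bind, on the opposite strand at -206 and -34, and 2.08% of all windows held 2 or more of that word. The Gzmb window held 2 RUNX words, at -93 and -34, and no GATA word, and 2.86% of all windows held 2 or more RUNX words. Mcpt8 also had 2, at -188 and -139.

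Prg2 and Epx encode major basic protein and eosinophil peroxidase, the main stored proteins of eosinophil granules. Prg2 was well above background on 19 of 22 arrays but stayed between 5.20 and 6.91 throughout. It averaged 5.88 without and 5.92 with Dox in HE, 5.99 and 5.55 in HE2, 5.78 and 5.65 in progenitors and 6.25 and 6.67 in myeloid progenitors. The groups overlapped in each case and no adjusted P was under 0.33. Epx was above background on 3 of 22 arrays, all uninduced, with a highest value of 5.96, and was not tested. Of the wider list of 11 eosinophil genes, 10 had a probe and 4 were tested. Ear1 and Ear2, ribonucleases of eosinophil granules, were not well above background on any array. Ear6 of the same family was so on all 22, at 6.38 to 7.92, and was not called with Dox (0.09, -0.39, -0.07 and -0.0032). Adgre4, a surface receptor of myeloid cells, fell with Dox in HE2, progenitors and myeloid progenitors, with changes of -1.32, -1.44 and -1.18, the stages at which Siglecf fell.

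The wider list of genes of these cells held 105 genes outside the members, of which 102 had a probe and 84 were tested. With Dox, 6 rose and 8 fell in HE, 7 rose and 11 fell in HE2, 2 rose and 4 fell in progenitors and 3 rose and 6 fell in myeloid progenitors. Of all tested genes 7.08%, 7.16%, 3.74% and 6.29% were called at these stages. Their median change was 0.065, -0.034, -0.018 and -0.0064 at these stages. In uninduced cells, 21 rose and none fell from HE to HE2, with a median of 0.25 beside 0.028 over all genes, of which 2.39% rose and 2.64% fell.

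Among the 10 receptors for growth factors and cytokines, Il1rl1 gave the rise most like that of Cpa3. The median change of the 10 was 0.57, 0.52, 0.22 and 0.38 at the 4 stages. Il1rl1 encodes ST2, the receptor through which IL-33 acts on mast cells and basophils. It was the single gene of the wider list called at all 4 stages. Its mean rose from 5.26 to 7.09 in HE (1.83, SE 0.43), from 6.86 to 9.48 in HE2 (2.61, SE 0.43), from 8.38 to 12.2 in progenitors (3.82, SE 0.52) and from 9.68 to 13.0 in myeloid progenitors (3.27, SE 0.43), with no overlap at any stage and adjusted P of 0.00572, 0.000329, 0.000174 and 3.18e-05. Csf2rb2, a β chain of the mouse IL-3 receptor, rose in HE by 1.57 and in HE2 by 1.76. Kit, the receptor for SCF on which mast cells depend, was not called with Dox, at 0.24, -0.18, -0.59 and 1.01. It was lower by 2.60 (SE 0.34, adjusted P = 1.60e-05) in uninduced myeloid progenitors than in uninduced progenitors.

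Among mediators made on activation, the cytokine gene Il4 rose with Dox in HE2 by 1.21 (SE 0.29), in progenitors by 1.83 (SE 0.36) and in myeloid progenitors by 1.56 (SE 0.29), with adjusted P of 0.00712, 0.00383 and 0.00105. The chemokine gene Ccl3 fell in HE2 by 2.31 and in myeloid progenitors by 1.41, and Ccl4 fell in HE2 by 1.45 and in progenitors by 1.87. Of the 7 tested genes for lipid mediators, none rose. Alox5, the first enzyme of leukotriene synthesis, fell by 2.40 in HE2 (SE 0.52). The mean of Alox5 was also lower with Dox in progenitors (12.92 and 11.35) and in myeloid progenitors (13 and 11.18), with no overlap, but neither was called. Its activating protein Alox5ap fell by 1.25 in HE2. Alox5ap changed by -1.22 in myeloid progenitors, where it was the only gene for lipid mediators that was called. Ltc4s, which makes leukotriene C4, fell in HE by 1.64.

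Of the 16 transcription factors listed, Gata1 rose in HE2 by 2.07 (SE 0.38) and Gata2 in myeloid progenitors by 1.26 (SE 0.29). Both serve mast cell and basophil development, and Gata1 also the red cell and platelet lineages. Erythroid markers moved with Gata1 in HE2. The summed intensity of 8 such genes was 79300 to 108000 without and 376000 to 452000 with Dox, and their part in the rise was not tested. Cebpb fell in HE2 by 1.88, Cebpe in progenitors by 1.75, Trib1 in HE by 1.39, and Ikzf1 in HE2 by 1.59 and in myeloid progenitors by 1.52. Mitf, a factor that mast cells need, was not called with Dox.

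Of the 7 tested surface genes in the list, 3 were called with Dox in HE, 2 in HE2 and 1 in myeloid progenitors. Itgb7, the β7 integrin chain that mast cell progenitors use to enter tissue, rose in HE from 6.92 to 10.8 (3.85, SE 0.32, adjusted P = 2.45e-07) and in HE2 from 7.34 to 9.38 (2.03, SE 0.32). In myeloid progenitors it changed by -1.13 and was not called. Its response was lower in myeloid progenitors than in HE2 (difference -3.17, SE 0.45, adjusted P = 0.000747), and lower in HE2 than in HE (difference -1.82, SE 0.45, adjusted P = 0.0621). Cd200r4, an activating receptor of the CD200R family, rose in HE by 2.58 (SE 0.35). Cd9 fell in HE and HE2 by 1.39 and 1.07, and Cd69 fell in myeloid progenitors by 1.03. Of the granule matrix list of 8 genes, Rab27b, a GTPase of granule release, was the only 1 called, with a fall of 1.31 in HE.

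**Figure D4:**
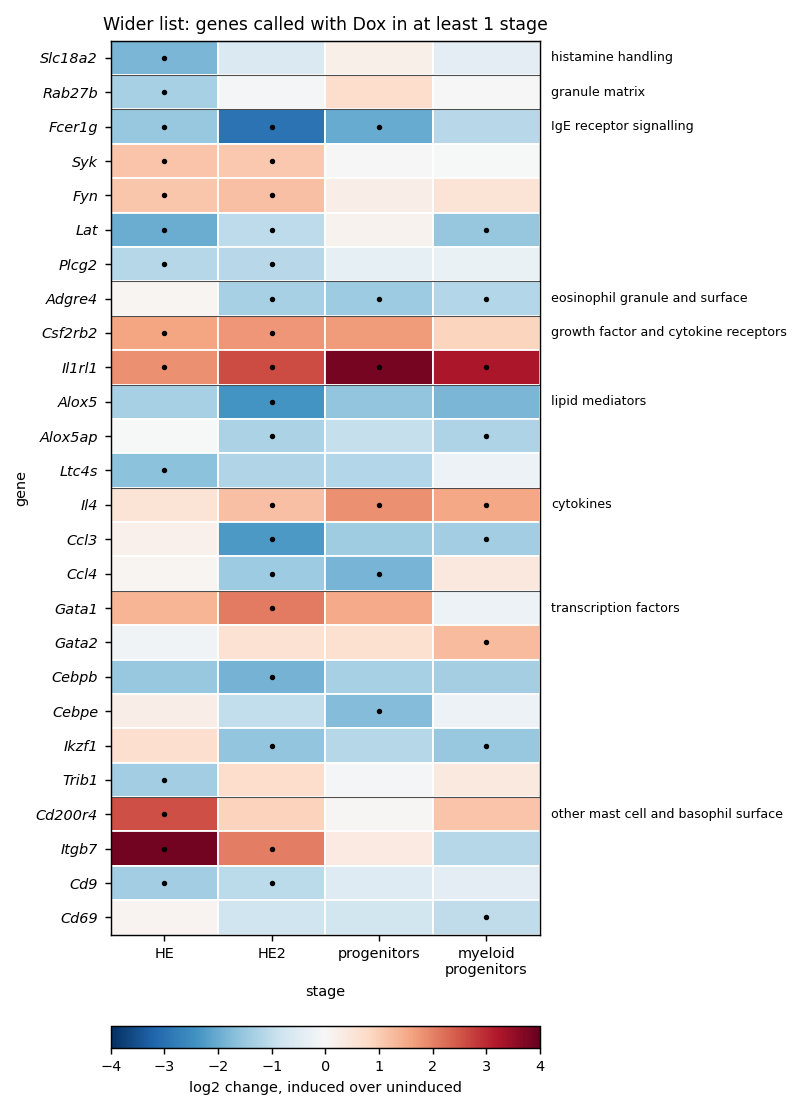
Log2 change with Dox (colour scale, red higher and blue lower) at the 4 stages (x axis) for the 26 genes of the wider list that were called at 1 stage or more (y axis), grouped by role. Black dots mark called changes. The row of Il1rl1 holds 4 dots, from 1.83 to 3.82, and the rows of Fcer1g, Alox5 and Ccl3 are bluest in HE2.

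The genes most like each responding member over the 22 arrays were named by Pearson correlation. The arrays share stages and Dox state, so this describes a shared pattern and no more. For Hdc these were Chst1 (r = 0.954), Snx10 (0.945) and Smtnl1 (0.945), and Smtnl1 rose with Dox by 3.80, 4.41, 3.53 and 4.51 at the 4 stages. For Cpa3 they were Il1rl1 (0.943), Depdc1b (0.928) and Cd55b (0.918). For Siglecf they were Spi1, which encodes PU.1 (0.970), Cxcr2 (0.966) and Chl1 (0.962), and Spi1 changed by -0.30, -2.74, -2.22 and -1.39 with Dox. For Gzmb they were the platelet collagen receptor gene Gp6 (0.979), Rspo4 (0.973) and Esx1 (0.972), and Gp6 changed by -1.60 with Dox in myeloid progenitors.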

How the data were processed

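Arrays of 23 samples were used: 22 in 8 groups, and an additional uninduced progenitor array that its title calls a technical replicate, which was normalised together with them but not fitted. The authors deposited, per array, median spot and background intensity read with Agilent Feature Extraction (version 10.7.1.1 per the labels, 10.7.3.1 per the file headers). Background was corrected with normexp (offset 16), control spots were dropped, arrays were quantile normalised and log2 transformed, and outlier spots were then removed. The array annotation is on mm9. Genes were named by RefSeq accession from a GRCm38.p6 table (26582 of 55681 probes), with no coordinates taken from it other than those of the promoter windows. Of the probes of a gene the brightest on average was kept, and a gene was tested if any of its probes reached 6.5 on 1 array or more. A mean per group was fitted to the 22 arrays with limma 3.58.1 in R 4.3.3 (14 residual degrees of freedom). Changes were called at P of at most 0.001 and 2-fold. The members and all gene lists were chosen with earlier results of these data known.

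All members were named, with the wider-list genes called with Dox without overlap (at most 3 per direction, role and stage), the label checks, and the 3 genes most correlated with each member called with Dox. The markers of other cell types were summed on the linear scale after normalisation. Where no array of a group measured a probe well above background, a fold is a lower bound: the bright mean was set against the higher of the dim probe and the lowest signal well above background. The number of arrays limits the precision. On simulated data with a log2 change of 1.5 in 200 of 15246 genes, recovery was 83% for HE, 77.5% for HE2, 69.5% for progenitors and 80% for myeloid progenitors.

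The authors also deposited a table of log2 values for the same arrays (median 6.69 to 6.70 per array), used as an alternative. Its log scale and ranks match the scanner files, and its normalisation between arrays is not given in the sources used here. In 6 of its 23 columns the values are those of another array: replicates 2 and 3 are exchanged in the induced HE, HE2 and myeloid groups. Group means do not change with this, and replicates are numbered here by the scanner files. Induced myeloid replicate 3 is a biological replicate by title and a technical one by source name, and was used as a replicate. Replicate numbers pair uninduced HE and HE2 arrays (correlations of deviations from group means of 0.393, 0.796 and 0.609) and, as the scanner files number them, did not pair those of any Dox comparison with 3 pairs. Array slides and scan days were read from the file headers.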

Additional observations from a re-analysis of the deposited data

Results flagged for a closer look

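For 3 members the difference between the responses to Dox at 2 stages was called by the interaction term of the limma fit (P of at most 0.001 and 2-fold). These terms were called for 1.34% of all genes between HE and HE2 and for 2.19% between HE2 and myeloid progenitors. Siglecf changed by -0.30 in HE and by -2.28 in HE2, a difference of -1.98. Its HE arrays lay between 5.40 and 5.96, where such a fall could not be seen. Cpa3 changed by 1.08 in HE2, which was not called, and by 3.27 in myeloid progenitors, a difference of 2.19. Gzmb changed by -0.08 in HE2 and by -2.08 in myeloid progenitors, a difference of -2.00. It was near background in HE2 and was tested only through the myeloid arrays, so a fall in HE2 could not be seen either. Dox was given from day 1 of blast culture in HE2 and for 12 h in myeloid progenitors, so stage and length of induction cannot be told apart.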

How the results depend on the processing

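Each result was recomputed under 38 alternatives, of which 22 left out 1 array each and 1 (the replicate block with exchanged numbers) was chosen after seeing the data. Of 17 called changes of members, leaving aside Hdc in HE2, 14 were called under all 38, and none reversed. These include the step of Gzmb to myeloid progenitors and its difference between responses, which its low level elsewhere fixed. The exceptions were Cpa3 in HE (not called under 11), Siglecf in progenitors (under 19) and the difference of Siglecf between HE and HE2 (under 1).

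In HE the count of 2 called members fell to 1 with an offset of 50, with no background correction, in the deposited log2 values and with the slide as a block, and ranged from 1 to 2 when 1 array was left out. From progenitors to myeloid progenitors the count of 1 became 2, with a fall of Siglecf added, with an offset of 50, in the deposited values, with the mean of a gene's probes, at an adjusted P of 0.05 and at 2-fold alone, and ranged from 1 to 2 when 1 array was left out (2 without induced HE2 replicate 3 or uninduced myeloid replicate 1). Over all genes, the 205 differences called between HE and HE2 became 132, and the 98 between HE2 and progenitors 28, at an adjusted P of 0.05. At 2-fold alone 2 members changed from HE2 to progenitors and 2 differed between HE2 and progenitors. With 75th percentile scaling, 0 members differed between HE and HE2. That scaling put the median of all genes at -0.16 in progenitors and -0.18 in myeloid progenitors with Dox and reversed no member. The cause of these shifts was not tested. Changes near 0 reversed in 13 of 494 values: leaving out 1 array, Prg2 ranged from -0.086 to 0.29 in HE and from -0.37 to 0.10 in progenitors, Cma1 from -0.26 to 0.18 in progenitors and Gzmb from -0.030 to 0.56 in progenitors. In progenitors, Gzmb was -0.050 with the slide and -0.030 with the scan date as a block, and Prg2 0.027 with the additional array and 0.069 with the scan date as a block. With the replicate block, by either numbering, no call of a member changed. By the exchanged numbers, uninduced and induced arrays of the same number deviated together in HE2 (0.36, 0.608 and 0.487) and in myeloid progenitors (0.21, 0.123 and 0.264), but not in HE (-0.0558, -0.204 and -0.36). The counts stayed at 2, 2, 3 and 4 called members with Dox in HE, HE2, progenitors and myeloid progenitors. That in HE2 includes the rise of Hdc known beforehand, which is a description.

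Probes of Mcpt8, Fcer1a, Ms4a2 and Epx lay at background, where a change cannot be seen.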
